A study of Homo sapiens with 6 samples.

Results

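The genes described here encode 10 histone chaperones and partner proteins that carry histones H3 and H4 onto DNA, among 20289 genes in the deposited table. They were chosen by symbol (CHAF1A, CHAF1B, ASF1A, ASF1B, HIRA, DAXX, ATRX, NASP, TONSL and MMS22L), and all 10 were found and were abundant enough to test (1 FPKM or more on average). RNA was sequenced from the human colorectal cancer line RKO in 2 groups: cells with a control short hairpin RNA, labelled ShControl and WT (3 libraries), and cells with a hairpin against TRMT6, labelled ShTRMT6 and TRMT6 knockdown (3 libraries). TRMT6 is the non-catalytic subunit of the enzyme that places 1-methyladenosine on tRNAs, and the study's title links that modification to histone synthesis. The labels name no treatment, time point, hairpin sequence, or number of hairpins or clones.

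Nucleosomes are rebuilt behind every replication fork, and new H3-H4 dimers reach the fork through a chain of chaperones. NASP protects the soluble pool, ASF1 proteins hand dimers on, and CAF-1, whose large subunits are CHAF1A and CHAF1B, deposits them while bound to the sliding clamp PCNA. TONSL and its partner MMS22L bind new histones on freshly replicated DNA and help recombination at stalled forks. Outside replication the variant H3.3 is deposited by HIRA with its partners UBN1 and CABIN1, mainly in active chromatin, and by DAXX with the remodeller ATRX at telomeres and other repeats. ASF1A is the paralogue that HIRA uses most, whereas ASF1B is tied to proliferation.

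In the shTRMT6 libraries the mRNAs of all 4 replication-coupled members (CHAF1A, CHAF1B, ASF1B and TONSL) were lower, by 1.37-fold to 1.81-fold. None of the 3 replication-independent members (HIRA, DAXX, ATRX) passed the main test, which has no replicate block. ASF1A rose 1.40-fold while its paralogue ASF1B fell, although the call for ASF1A ended once the trend of fold change with GC content was removed. NASP and MMS22L did not pass. With the replicate number as a block HIRA and NASP were also called lower (limma adjusted p = 0.0391 and 0.0149), which makes 6 members lower. Without the block HIRA passed as lower with median-of-ratios scaling (limma adjusted p = 0.0399). ATRX passed as higher without shControl replicate 2 (limma adjusted p = 0.0329). In the main test, 4 of the 10 members were lower and 1 was higher at an adjusted p under 0.05, which is 40% and 10% of them. Among all 10592 genes tested, 16.1% were lower and 19.3% higher by the same rule. For 6 members every shTRMT6 library lay below every shControl library, against 22.1% of all genes tested, and for 1 member every shTRMT6 library lay above, against 26.2%. As medians, the replication-coupled class had a log2 fold change of -0.71 and the replication-independent class one of -0.067, beside 0.024 over all genes tested. The difference between the classes was not tested.

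The knockdown showed in the target itself. TRMT6 stood at 14.43, 17.96 and 16.85 FPKM in the control libraries and at 1.58, 1.73 and 1.09 FPKM after knockdown, where FPKM is the fragment count scaled for transcript length and library depth. Estimated depth was 18.7 to 28.4 M fragments per library (M, mega). Of 8 epithelial markers, CDH1, KRT19, KRT20 and VIL1 were listed at 0 in all 6 libraries, while KRT18, KRT8, EPCAM and CDX2 were present. The summed level of that list ran from 123.6 to 156.1 FPKM in shControl and from 200.99 to 213.6 FPKM in shTRMT6, with KRT18 1.57-fold and EPCAM 1.498-fold higher and the other 2 not called. EPCAM lost its call without shControl replicate 1 (limma adjusted p = 0.0863), shTRMT6 replicate 2 (0.114) or shTRMT6 replicate 3 (0.0696). It also lost its call with no filter on low values (limma adjusted p = 0.111). The summed level of 10 markers of fibroblasts, leukocytes and endothelium was at most 1.05 FPKM in any library. Across genes, GC-rich transcripts had lower fold changes than GC-poor ones (Pearson r = -0.39 over 10573 genes, which are not independent replicates), so each member's GC content and its value after removal of that trend are given where they matter.

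Upstream sequences are shown for CHAF1A, CHAF1B and ASF1B, whose mRNAs were lower, and for ASF1A, whose mRNA was higher. The call of ASF1A ended after removal of the GC trend, and no replication-independent member is shown. The sequences were copied from the RefSeq promoter table (GRCh38.p14), in which 7 of the 10 members were found and TONSL, DAXX and ATRX were not. Each runs 5′ to 3′ on the gene's own strand and stops before the RefSeq start. Capitals mark CCAAT (the CCAAT box), TTTGAA (the cell cycle homology region), TTCCCGC (an E2F-type word) and GGGCGG (the GC box) on either strand; CCAAT matches may overlap on opposite strands, as 1 pair does in CHAF1A.
CHAF1A, chr19:4402390-4402639, plus strand: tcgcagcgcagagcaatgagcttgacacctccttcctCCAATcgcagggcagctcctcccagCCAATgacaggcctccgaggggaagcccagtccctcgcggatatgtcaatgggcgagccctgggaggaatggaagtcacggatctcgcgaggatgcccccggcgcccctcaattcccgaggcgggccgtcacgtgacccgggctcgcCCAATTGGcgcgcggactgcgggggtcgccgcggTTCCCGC
CHAF1B, chr21:36385142-36385377, plus strand: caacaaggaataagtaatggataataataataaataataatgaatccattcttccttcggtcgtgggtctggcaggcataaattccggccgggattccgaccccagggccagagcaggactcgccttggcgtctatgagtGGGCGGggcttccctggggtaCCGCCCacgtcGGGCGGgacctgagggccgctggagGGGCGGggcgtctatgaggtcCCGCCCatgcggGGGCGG
ASF1B, chr19:14136605-14136634, minus strand: gaGGGCGGaggccggctaTTTGAAggcggc
ASF1A, chr6:118893902-118894151, plus strand: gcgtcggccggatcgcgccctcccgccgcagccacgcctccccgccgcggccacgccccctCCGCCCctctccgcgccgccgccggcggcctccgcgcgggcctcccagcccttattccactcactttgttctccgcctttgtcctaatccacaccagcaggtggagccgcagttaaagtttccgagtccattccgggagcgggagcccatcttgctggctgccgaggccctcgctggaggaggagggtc

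Over the 250 bases before the start, CHAF1A held 4 CCAAT matches and 1 TTCCCGC, and ASF1B held 3 CCAAT matches, 1 TTTGAA and 1 GGGCGG. CHAF1B held 6 GGGCGG matches and none of the other words, so the genes of both large CAF-1 subunits share none of the words searched. ASF1A held 1 GGGCGG and none of the others. HIRA, which did not pass the main test, held 1 TTCCCGC and 4 GGGCGG. MMS22L held 2 CCAAT matches, and NASP 1 CCAAT and 1 GGGCGG. Of 35116 promoters of the same length in the table, 32.01% held CCAAT, 13.3% TTTGAA, 5.52% TTCCCGC and 42.6% GGGCGG. Only 30 bases are shown for ASF1B, since an annotated transcript of it starts further upstream. A match of letters is a description and not a measured binding site.

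CHAF1A (ENSG00000167670; chromosome 19, bases 4402662 to 4445018, plus strand, GENCODE release 29, GRCh38) encodes the CAF-1 subunit that binds H3-H4 and PCNA. Its level was 34.93, 33.54 and 32.1 FPKM in replicates 1, 2 and 3 of shControl, against 21.43, 19.73 and 19.75 FPKM in those of shTRMT6. All 3 shTRMT6 libraries were far below the lowest shControl library, and the spread within each group was small. The means were 33.5 ± 1.42 and 20.3 ± 0.976 FPKM (SD, n = 3 each), a 1.65-fold fall, with a log2 fold change of -0.70 (SE 0.10, limma adjusted p = 0.000254). After removal of the GC trend the log2 fold change was -0.56 (limma adjusted p = 0.00033). In a bulk sample, fewer cells that express a gene and less RNA per cell cannot be told apart, and this holds for every member.

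CHAF1B (ENSG00000159259; chromosome 21, bases 36385378 to 36419015, plus strand) encodes the WD-repeat subunit of CAF-1. Control libraries read 12.93, 12.01 and 11.39 FPKM, and knockdown libraries 8.77, 9.45 and 8.29 FPKM. The groups did not overlap, with the smallest fall of the replication-coupled members: from 12.1 ± 0.775 to 8.84 ± 0.583 FPKM (SD, n = 3 each), 1.37-fold, with a log2 fold change of -0.41 (SE 0.11, limma adjusted p = 0.00998). Its GC content, 48.7%, is close to the median of tested genes (48.8%), and the value hardly moved after removal of the GC trend (-0.43, limma adjusted p = 0.00412). The ratio of CHAF1A to CHAF1B FPKM was 2.70, 2.79 and 2.82 in shControl and 2.44, 2.09 and 2.38 in shTRMT6, lower in every shTRMT6 library. The difference of their log2 fold changes was -0.28, and -0.13 after removal of the GC trend. The mRNA of the small CAF-1 subunit RBBP4, a histone binder shared with several other chromatin complexes, averaged 123.6 FPKM in shControl and 106.2 FPKM in shTRMT6. It did not pass (limma adjusted p = 0.0831), although the highest shTRMT6 library (113.56 FPKM) lay below the lowest shControl library (119.02 FPKM).

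ASF1B (ENSG00000105011; chromosome 19, bases 14119509 to 14136956, minus strand) had the lowest log2 fold change of the 10 members. Its control values were 61.1, 53.24 and 49.89 FPKM, and its knockdown values 33.17, 28.72 and 29.09 FPKM. The highest shTRMT6 library lay well under the lowest shControl library. Means of 54.7 ± 5.75 and 30.3 ± 2.47 FPKM (SD, n = 3 each) give a 1.81-fold fall, with a log2 fold change of -0.83 (SE 0.11, limma adjusted p = 0.000145). After removal of the GC trend it was -0.69 (limma adjusted p = 0.000223).

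ASF1A (ENSG00000111875; chromosome 6, bases 118894220 to 118909167, plus strand) was the only member called higher in the main test. It went from 5.44, 6.61 and 5.42 FPKM with the control hairpin to 8.12, 8.72 and 7.64 FPKM with the TRMT6 hairpin, so every shTRMT6 library was above every shControl library. The mean went from 5.82 ± 0.681 to 8.16 ± 0.541 FPKM (SD, n = 3 each), 1.40-fold, with a log2 fold change of 0.43 (SE 0.12, limma adjusted p = 0.0133). With 34.9% GC, its transcript has the lowest GC content of the members. The call ended after removal of the GC trend (log2 fold change 0.15, limma adjusted p = 0.207), without shControl replicate 3 (adjusted p = 0.0554) and without shTRMT6 replicate 2 (adjusted p = 0.0605). Of its annotated exon bases 5.44% lie opposite exons of MCM9, and since the strand setting of the libraries was not given, reads from the antisense gene cannot be told apart there.

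Between the ASF1 paralogues the balance moved. ASF1B exceeded ASF1A 11.2, 8.05 and 9.20 times in shControl replicates 1, 2 and 3 and 4.08, 3.29 and 3.81 times in shTRMT6. Put as a share of the summed FPKM of the pair, ASF1B made up 90.3 ± 1.44% in shControl and 78.7 ± 1.85% in shTRMT6 (SD, n = 3 each). The groups did not overlap, and ASF1B remained the more abundant paralogue in all 6 libraries. The difference of their log2 fold changes was -1.26, and -0.84 after removal of the GC trend. No p is given for this ratio, which combines members chosen with earlier results known.

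TONSL (ENSG00000160949; chromosome 8, bases 144428775 to 144444444, minus strand) encodes the reader of new H4 on nascent chromatin. The shControl libraries held 35.61, 31.69 and 30.3 FPKM, the shTRMT6 libraries 20.8, 17.38 and 19.78 FPKM. The lowest control value was well above the highest knockdown value. The mean fell from 32.5 ± 2.75 to 19.3 ± 1.76 FPKM (SD, n = 3 each), 1.68-fold, with a log2 fold change of -0.72 (SE 0.11, limma adjusted p = 0.000381). With 65.7% GC, TONSL has the GC-richest transcript of the members, and after removal of the GC trend its log2 fold change was -0.57 (limma adjusted p = 0.000299).

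MMS22L (ENSG00000146263; chromosome 6, bases 97142161 to 97283217, minus strand), the partner of TONSL, did not follow it at the level of single libraries. Its control libraries measured 2.13, 3.39 and 4.73 FPKM and its knockdown libraries 4.14, 2.94 and 2.27 FPKM. All shTRMT6 values lay within the shControl range. The log2 fold change was -0.08 (SE 0.21, 95% interval -0.53 to 0.36, limma adjusted p = 0.784), and it was -0.31 without shControl replicate 1 and 0.13 without shControl replicate 3. After removal of the GC trend it was -0.34 (limma adjusted p = 0.173). A fall as deep as that of CHAF1B lies within the interval. TONSL exceeded MMS22L by 16.7, 9.35 and 6.41 times in shControl and by 5.02, 5.91 and 8.71 times in shTRMT6, ranges that overlap, and the difference of their log2 fold changes went from -0.64 to -0.23 after removal of the GC trend. Both this transcript (38.0% GC) and that of ATRX (36.8% GC) are poor in GC and lowest in shControl replicate 1. ASF1A, the GC-poorest member (34.9% GC), was not lowest there: it read 5.44 FPKM, against 5.42 FPKM in shControl replicate 3.

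**Figure D1:**
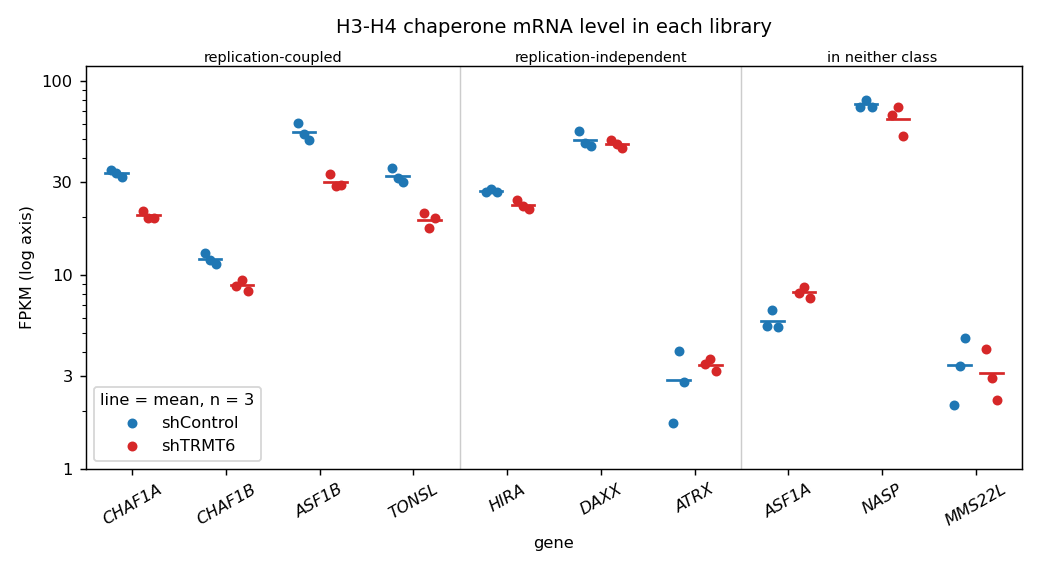
FPKM (log axis) of each of the 10 members in the 3 shControl libraries (blue) and 3 shTRMT6 libraries (red), with lines at the group means. CHAF1A, CHAF1B, ASF1B and TONSL separate with shTRMT6 lower, as do HIRA and NASP by less, ASF1A separates with shTRMT6 higher, and DAXX, ATRX and MMS22L overlap.

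HIRA (ENSG00000100084; chromosome 22, bases 19330698 to 19447450, minus strand), the core of the H3.3 complex, was a little lower in each shTRMT6 library. The control hairpin gave 26.74, 27.8 and 26.86 FPKM and the TRMT6 hairpin 24.49, 22.58 and 21.79 FPKM, without overlap. The means were 27.1 ± 0.580 and 23.0 ± 1.39 FPKM (SD, n = 3 each), and by limma the difference stayed short of the threshold (log2 change -0.23, SE 0.10, 95% interval -0.44 to -0.026, limma adjusted p = 0.0749). With the replicate number as a block it did pass (limma adjusted p = 0.0391), as it did with median-of-ratios scaling (0.0399), and after removal of the GC trend it did not (log2 fold change -0.11, limma adjusted p = 0.274). In GENCODE release 29, 66.5% of the exon bases of HIRA are also exon bases of C22orf39 on the same strand, so how fragments were shared out between them is not known. C22orf39 itself fell from 5.36 ± 0.501 to 2.43 ± 0.306 FPKM (SD, n = 3 each; limma adjusted p = 0.000269), and its part in the value for HIRA was not tested.

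DAXX (ENSG00000204209; chromosome 6, bases 33318558 to 33323016, minus strand), the H3.3 chaperone that works with ATRX, barely differed. In shControl it was at 55.41, 47.65 and 46.23 FPKM; in shTRMT6 it was at 49.87, 47.24 and 44.94 FPKM. The highest value was in shControl replicate 1, and the remaining libraries lay close together. The log2 fold change was -0.07 (SE 0.10, 95% interval -0.28 to 0.15, limma adjusted p = 0.636), and its sign turned after removal of the GC trend (0.044) and without shControl replicate 1 (0.011). The estimate for CHAF1B, -0.41, lies outside the interval of DAXX, but the 95% interval of CHAF1B (-0.65 to -0.18) overlaps it. The difference between DAXX and CHAF1B was not tested.

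ATRX (ENSG00000085224; chromosome X, bases 77504878 to 77786233, minus strand), a SWI/SNF-family remodeller, was the lowest of the members in shControl. Among control libraries it varied from 1.73 through 2.81 to 4.08 FPKM (replicates 1, 3 and 2), whereas shTRMT6 gave 3.48, 3.69 and 3.2 FPKM. The shTRMT6 values all lay inside the shControl range. The log2 fold change was 0.25 (SE 0.18, 95% interval -0.15 to 0.64, limma adjusted p = 0.315). It was 0.017 without shControl replicate 1 and 0.47 without shControl replicate 2, when it passed (limma adjusted p = 0.0329), and -0.017 after removal of the GC trend. About 390 fragments stand behind the lowest ATRX value, by its length and the estimated depth.

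NASP (ENSG00000132780; chromosome 1, bases 45583846 to 45618904, plus strand), the H3-H4 store, was the most abundant member. Levels were 73.75, 79.92 and 73.61 FPKM in the control group and 66.58, 73.43 and 52.07 FPKM in the knockdown group. The groups just failed to overlap, since shTRMT6 replicate 2 (73.43) lay next to shControl replicate 3 (73.61). The means were 75.8 ± 3.603 and 64.0 ± 10.9 FPKM (SD, n = 3 each), with a log2 fold change of -0.25 (SE 0.12, limma adjusted p = 0.113). With the replicate block NASP passed (limma adjusted p = 0.0149), after removal of the GC trend it passed as well (log2 fold change -0.33, limma adjusted p = 0.0275), and without shTRMT6 replicate 3 the log2 fold change was -0.11 (limma adjusted p = 0.385).

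**Figure D2:**
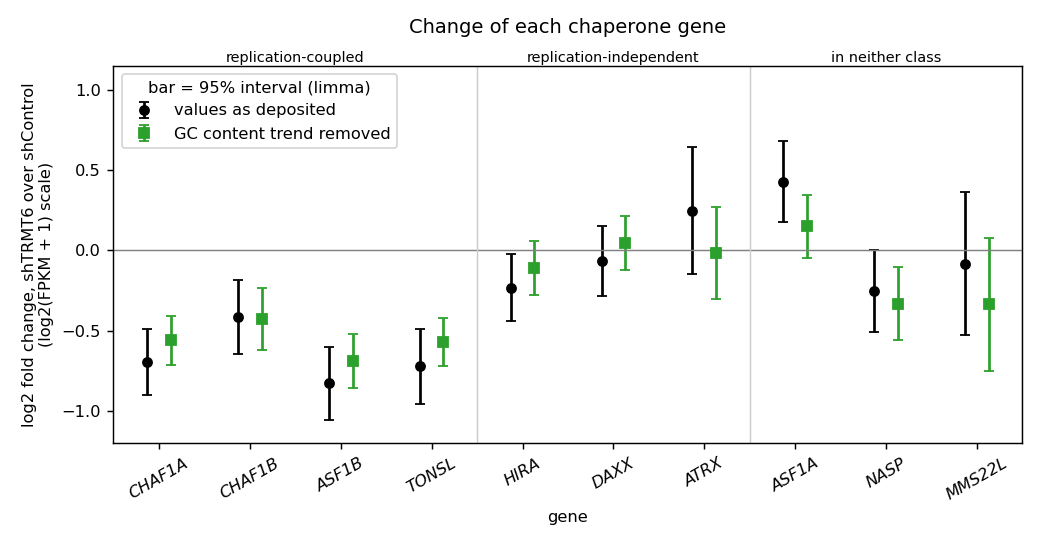
Log2 fold change of each member, shTRMT6 over shControl, with 95% limma intervals, for the values as deposited (black circles) and after removal of the GC trend (green squares). The intervals of the 4 replication-coupled members lie below 0 in both, that of ASF1A lies above 0 and that of HIRA below 0 only for the values as deposited, that of NASP lies below 0 only after the removal, and those of DAXX, ATRX and MMS22L span 0 in both.

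The order of the levels shows which chaperones changed places. In shControl it ran from NASP through ASF1B, DAXX, CHAF1A, TONSL, HIRA, CHAF1B, ASF1A and MMS22L to ATRX (2.87 ± 1.18 FPKM, SD, n = 3). ASF1B and DAXX, CHAF1A and TONSL, and MMS22L and ATRX were neighbours whose libraries overlapped. In shTRMT6 DAXX (47.4 ± 2.47 FPKM) stood above ASF1B without overlap. HIRA, too, stood above CHAF1A and TONSL there without overlap, and CHAF1B (8.84 FPKM) and ASF1A (8.16 FPKM) overlapped. The ratio of CHAF1A to HIRA was 1.31, 1.21 and 1.20 in shControl and 0.875, 0.874 and 0.906 in shTRMT6, above 1 in each control library and below 1 in each knockdown library. The difference of their log2 fold changes was -0.46, and -0.45 after removal of the GC trend. ASF1A over HIRA was 0.214 ± 0.0203 in shControl and 0.356 ± 0.0277 in shTRMT6 (SD, n = 3 each), but here the difference of log2 fold changes went from 0.66 to 0.26 after removal of the GC trend. Both ratios carry the uncertainty of HIRA, whose exons are shared with C22orf39.

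**Figure D3:**
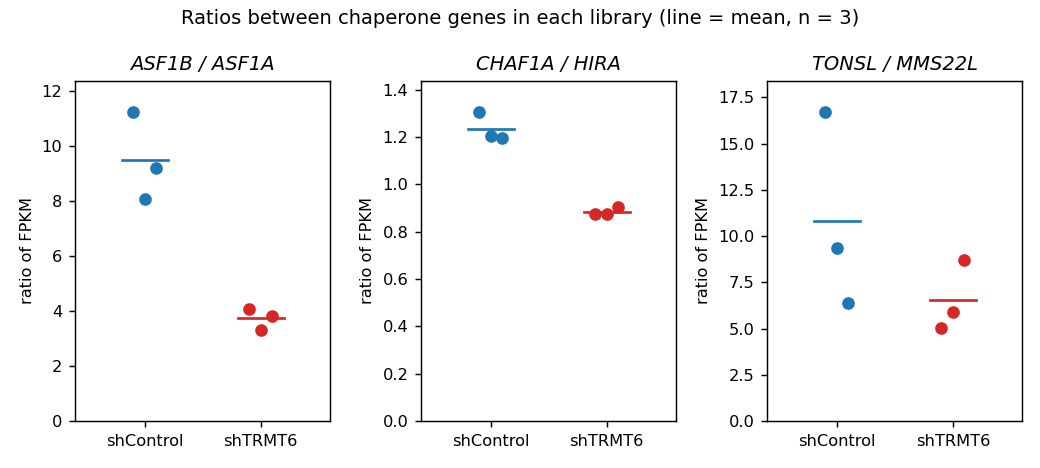
Ratio of FPKM between pairs of members in each library, with lines at the group means and axes from 0. ASF1B over ASF1A and CHAF1A over HIRA separate the groups without overlap (means 9.497 and 3.73, and 1.24 and 0.885), whereas TONSL over MMS22L overlaps.

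**Figure D4:**
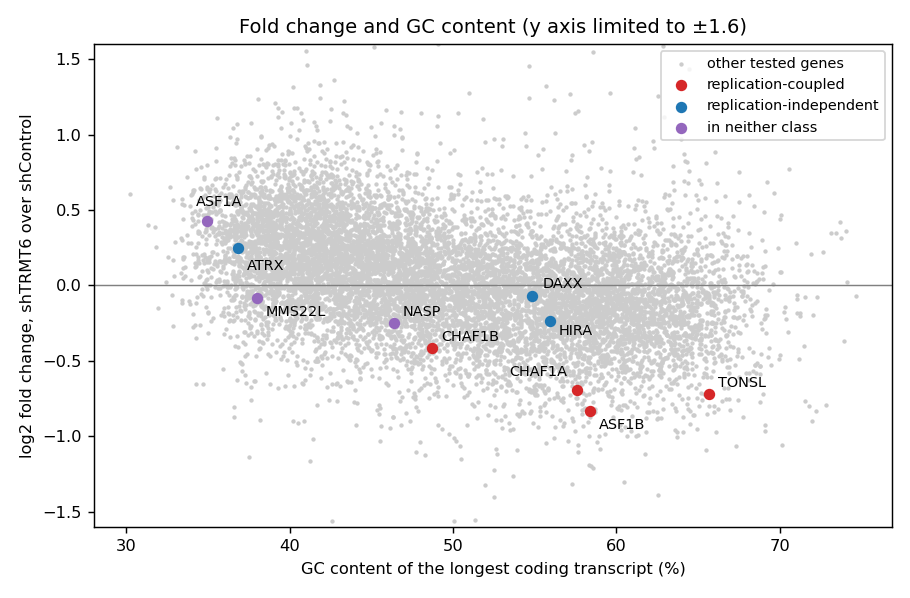
Log2 fold change against transcript GC content for the tested genes (grey) and the 10 members (coloured by class). The y axis is limited to ±1.6. CHAF1A, ASF1B and TONSL lie at 57.6% to 65.7% GC, low in the grey cloud, whereas ASF1A and ATRX lie at 34.9% and 36.8% GC, where the cloud is shifted upwards.

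Partners of these chaperones were taken from lists written with the members, and each list's counts stand beside 16.1% lower and 19.3% higher over all genes tested. Among the 3 HIRA partners, CABIN1 fell from 17.02 ± 1.93 to 11.9 ± 1.03 FPKM (SD, n = 3 each; 1.43-fold, limma adjusted p = 0.00677) and the other 2 were not called: UBN1 read 15.9 and 14.2 FPKM on average, and UBN2 2.49 and 3.18 FPKM. In the list of H3-H4 supply, which holds 9 genes of histone binding, acetylation, folding, import and ASF1 control, 3 rose, 1 fell and 5 were not called (median log2 fold change -0.054). TLK2 and TLK1, the tousled-like kinases that phosphorylate ASF1, rose 1.43-fold and 1.296-fold (limma adjusted p = 0.00836 and 0.0291). CDAN1, which binds ASF1 in the cytoplasm and restrains it, fell from 9.28 to 5.73 FPKM (1.62-fold, limma adjusted p = 0.00164), and its partner CDIN1 rose 1.40-fold (limma adjusted p = 0.026). TLK1 is named after its value was seen. After removal of the GC trend 1 gene of this list, TLK2, was higher and 2 were lower. TLK1 and CDIN1 were then no longer called higher. With the replicate block 3 were higher and 3 lower, and with both TLK2 alone was higher and 5 genes were lower. Without shControl replicate 3, shTRMT6 replicate 1 or shTRMT6 replicate 2 only 1 was higher. CDIN1 lost its call in 4 of the 6 settings that leave out a library.

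At the fork, the list of 7 genes that handle parental histones or move them during transcription had 3 lower and 4 not called. MCM2, a helicase subunit that also holds H3-H4, fell from 84.9 to 57.7 FPKM (1.47-fold, limma adjusted p = 0.00154). SUPT6H fell 1.31-fold (limma adjusted p = 0.00902) and SSRP1 of the FACT complex 1.24-fold (limma adjusted p = 0.0201), whereas SUPT16H, the other FACT subunit, averaged 38.6 and 44.6 FPKM and did not pass (limma adjusted p = 0.168). Without shControl replicate 3 only 1 gene of this list was lower. With the replicate block, the GC correction, both together or quantile normalization, 1 gene of the list was called higher and 3 lower. Deposition of CENP-A, the H3 variant of centromeres, had 2 of 4 genes lower: its chaperone HJURP fell from 19.8 to 11.7 FPKM (1.70-fold, limma adjusted p = 0.000272) and OIP5 fell 1.88-fold (limma adjusted p = 0.000436). After removal of the GC trend all 4 were lower.

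Of 7 chaperones of H2A-H2B, the other histone dimer, 4 rose and 3 were not called (median 0.31 on the log2 scale), beside 19.3% higher over all genes tested. NPM1 (nucleophosmin) rose 1.31-fold, NCL (nucleolin) 1.27-fold and SET 1.24-fold (limma adjusted p = 0.0193, 0.0228 and 0.0211). These calls were close to the threshold. The count was 2 higher and 1 lower after removal of the GC trend, 5 and 1 with the replicate block, 1 higher without shControl replicate 1, 2 without shControl replicate 3 and 0 higher without shTRMT6 replicate 1 or 2. With quantile normalization 1 was higher and 1 lower, and NPM1 and SET lost their calls. With no filter on low values 1 was higher, and NCL and NPM1 lost theirs.

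**Figure D5:**
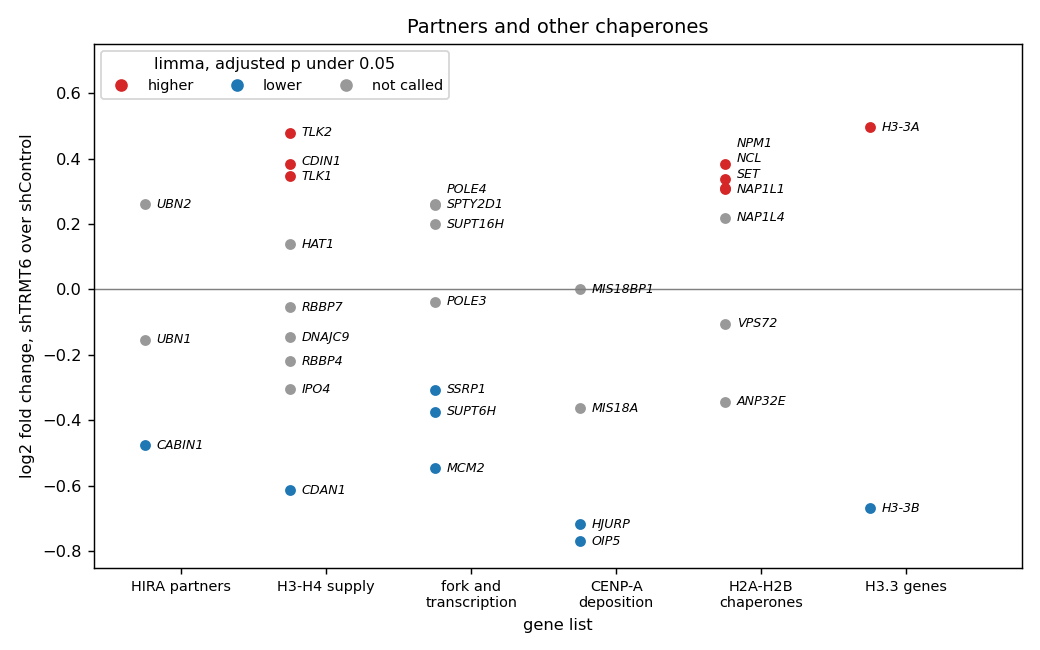
Log2 fold change, shTRMT6 over shControl, of the tested genes of 6 lists of partners, other chaperones and H3.3 genes, coloured by the limma call in the main test. The fork and CENP-A lists hold lower calls and no higher ones, the H2A-H2B chaperones hold higher calls and no lower ones, and the H3.3 genes split.

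The client histones of the 2 pathways also differed in level. Of the genes for H3.3, the client of HIRA and DAXX, H3-3A rose from 141.7 to 200.5 FPKM (1.41-fold, limma adjusted p = 0.00111) and H3-3B fell from 333.8 to 210.0 FPKM (1.59-fold, limma adjusted p = 0.000195). H3-3B was lower in every shTRMT6 library and H3-3A higher. Only 7 of 27 replication-dependent H3 and H4 genes had a mean of at least 1 FPKM. Of these, 5 were called higher and 1 lower, beside 19.3% higher and 16.1% lower over all genes tested. The lower one, H4C11, was the most abundant of the 7 in shControl. It fell from 14.9 to 9.89 FPKM on average (limma adjusted p = 0.0221). After removal of the GC trend 5 were higher and 0 lower. With no filter 10 were higher, and with a mean of at least 5 FPKM 1 was. H3C10 went from 1.83, 1.23 and 1.45 FPKM to 6.4, 6.21 and 7.03 FPKM, 4.35-fold (limma adjusted p = 5.07e-06), while H4C8 rose 5.55-fold and H4C14 4.198-fold. Many of these histone genes are near-identical copies, so how fragments were divided between them is uncertain, and a gene at a low level passed the filter only if 1 group was high enough.

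Part of the S phase and G2/M gene lists was also lower in shTRMT6. Of 41 S phase genes other than the members, 14 fell, 1 rose and 26 were not called (median log2 fold change -0.19), and their summed level was 1454 to 1534 FPKM in shControl and 1103 to 1304 FPKM in shTRMT6. PCNA, the clamp that CAF-1 binds, was not among those called (log2 fold change -0.015, limma adjusted p = 0.918); it is named after its value was seen. MCM5, a helicase subunit, fell 1.89-fold and CDC45, its partner in the active helicase, 1.601-fold (limma adjusted p = 0.000147 and 0.000401). Of 52 tested genes of G2 and mitosis, 24 fell, 1 rose and 27 were not called (median log2 fold change -0.29). MKI67, a proliferation antigen, fell 2.30-fold, and CDCA3 and PSRC1 fell too. Over all genes tested, 16.1% were lower and 19.3% higher. The counts of lower genes were 29 and 38 after removal of the GC trend. The part of cell cycle stage in the lower replication-coupled mRNAs was not tested.

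Over the 6 libraries, the genes whose log2 levels followed ASF1B most closely were IAH1, ITPA and EIF2D (Pearson r = 0.9985, 0.9981 and 0.998). For ASF1A they were CAAP1, POMP and THNSL1 (0.9983, 0.9982 and 0.9981). With 6 libraries in 2 groups such values are common: 552 genes were above 0.95 for ASF1B and 751 for ASF1A. They are given as a description only.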

How the data were processed

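RNA sequencing of 6 RKO libraries was used (3 shControl, 3 shTRMT6; group and replicate number from the sample titles). Each column, named NC or SH with a number, was matched to the title of that group and number. Per the labels' protocols, RNA was extracted with TRIzol and libraries were made with a NEBNext Ultra kit. Per the file headers, the deposited values are FPKM, one per gene in each library. Per the submitters' processing notes, the tools were HISAT2, RSEM, StringTie 1.3.1, Bowtie2 2.2.8 and fastp 0.18.0, with no roles stated. Build, annotation and strand setting are not given in the sources used here. Whether replicates came from separate cultures is not stated; the p-values then reflect only the spread of these libraries, which may be technical.

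Symbols came from a gene name table (20257 of 20289 identifiers), and GC content and coordinates from GENCODE release 29 (20171 genes found; longest coding transcript). Depth was estimated from the steps between low FPKM values of genes with 1 transcript of at most 1000 bases, over 12 to 32 M fragments, and is rough. The 10592 genes averaging 1 FPKM or more were modelled as log2(FPKM + 1) in limma 3.58.1 under R 4.3.3 (two-sided, variance prior with a trend), Benjamini-Hochberg adjusted over all tested genes, threshold 0.05. Log2 fold changes on this scale understate changes of low genes; folds in the text are ratios of mean FPKM. The model was checked on simulated data with independent noise for each gene. These had no pairing and no GC trend, so the check does not cover either. The GC correction subtracts each library's lowess trend (span 0.3) on GC content.

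Members and lists were chosen with earlier results of these data known. Named from each list were up to 3 called genes with the largest absolute log2 fold change, or the 2 most abundant where none was called, besides all members, TRMT6, TRMT61A and, for the members with the lowest and highest change, the 3 genes with the highest Pearson r. Not every gene meeting it is reported here. TRMT61A averaged 9.95 and 11.3 FPKM and did not pass (limma adjusted p = 0.294; 0.00791 with the GC correction). By an exact two-sided permutation test TRMT6 had p = 0.1, the smallest that 3 libraries against 3 allow. Deviations from the group mean correlated across genes at 0.21, 0.36 and 0.17 between libraries of the same number (different numbers: -0.29 to 0.094), which was taken as pairing, though no label explains the numbers. The main test does not model this pairing. It called 4 members lower, against 6 with the replicate block. The replicate block, other pseudocounts, filters, scalings and variance priors, and each library left out were alternatives.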

Additional observations from a re-analysis of the deposited data

How the results depend on the processing

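The falls of CHAF1A, CHAF1B, ASF1B and TONSL kept their direction and passed under all 17 alternatives, with log2 fold changes of -0.73 to -0.56, -0.46 to -0.37, -0.89 to -0.69 and -0.78 to -0.57. The count of members lower was 4 to 6. The count of members higher was 1, but 0 with the GC correction, alone and with the replicate block, and 0 to 2 when 1 library was left out. The replication-coupled median was -0.71, and -0.57 with the GC correction, alone and with the block; without 1 library it ran from -0.755 to -0.663. The replication-independent median was -0.067, and -0.15 with a mean of at least 5 FPKM, which drops ATRX; it ran from -0.117 to 0.011 without 1 library, turning sign without shControl replicate 1. Over all genes, 2042 genes were higher and 1704 lower; without 1 library the counts ran from 1284 (without shTRMT6 replicate 2; 1290 without shTRMT6 replicate 1) to 2073 higher and from 1112 (without shTRMT6 replicate 2) to 1724 lower, with the replicate block 2702 were higher and 2252 lower, and with the GC correction and replicate block 2637 were lower. The sign turned for DAXX with the GC correction (0.044) and without shControl replicate 1 (0.011), for ATRX with the GC correction (-0.017), and for MMS22L without shControl replicate 3 (0.13) or shTRMT6 replicate 3 (0.070), with -0.31 the lowest value for MMS22L when 1 library was left out. The replicate block changed the calls of HIRA and NASP and of no other member. Where a result changed, the cause was not tested. By transcript length and estimated depth, fewest fragments stand behind shControl replicate 1 for ASF1A (about 260), MMS22L (370) and ATRX (390). The part of fragment number in the spread of these members was not tested.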
